A study of Mus musculus with 4 samples.

Results

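The genes of antigen presentation by the major histocompatibility complex (MHC, called H2 in the mouse) were examined as 10 genes chosen by symbol, out of 55401 genes in the count files. Class II was represented by 7 genes (H2-Aa, H2-Ab1, H2-Eb1, H2-DMa, H2-DMb1, Cd74 and Ciita) and class I by 3 genes (H2-K1, H2-D1 and B2m). Every gene was found by its Ensembl identifier, and all 10 reached a mean of 10 reads or more in kidney and in heart. By GENCODE M21 (GRCm38), 7 of the 10 lie in the H2 region of chromosome 17, between H2-K1 (33996017 to 34000347, minus strand) and H2-D1 (35262730 to 35267499, plus strand). In between are H2-DMa (from 34119541), H2-DMb1 (from 34153072), H2-Ab1 (from 34257689), H2-Aa (from 34282744) and H2-Eb1 (from 34305867). Cd74 lies on chromosome 18, Ciita on chromosome 16 and B2m on chromosome 2, all 10 being protein-coding.

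RNA of kidney and heart was sequenced from C57BL/6 mice after cecal ligation and puncture (CLP), an operation that causes sepsis by opening the gut to the abdominal cavity. In each tissue, a CLP library was set against a CLP + MLT library, MLT standing for melatonin, the hormone of the pineal gland. All 4 libraries therefore shared CLP, and no sham library was analysed here. The study's methods describe male mice aged 8 weeks and kidneys taken 24 h after CLP, with melatonin (25 μg/ml, dissolved in 0.1% ethanol) given by drinking water over 14 days. No dose or time is given for the hearts, and the titles of the CLP + MLT libraries carry a number that is not explained. The sources do not say whether a library held RNA of 1 mouse or of a pool. Each group had 1 library, so no difference below has a replicate check, and the 95% intervals cover counting error only.

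Class II molecules carry peptides from proteins taken up by the cell to CD4 T cells, and are made mainly by dendritic cells, macrophages and B cells. Class I molecules are made by nearly every nucleated cell and show peptides of the cell's own proteins to CD8 T cells. Transcription of the class II genes depends on the coactivator Ciita, which joins factors bound to a conserved upstream module, and interferon gamma is the classical inducer of both classes. In bulk tissue, fewer cells of a type and less RNA per cell cannot be told apart.

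Reads on genes numbered from 15883057 to 22927905 per library. The kidney libraries differed in the mitochondrial share of these reads, 14.78% in CLP and 24.25% in CLP + MLT, and the heart libraries held 31.63% and 35.99%. Between 23.63% and 38.62% of a file's reads were counted as aligning to several places, which bears on H2-K1, H2-D1 and H2-DMb1, since these resemble neighbouring genes.

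The upstream module is shown for 4 members, because it is the sequence feature that the class I and class II genes share. Promoter windows of RefSeq (250 bases before to 50 after a gene's start, GRCm38.p6) were matched by symbol for 7 of the 10 members, and H2-Ab1, Cd74 and Ciita had no entry. Both strands were searched for TGANG, the core of the X2 element, followed after 20 to 23 bases by ATTGG, the inverted CCAAT letters of the Y element. In the sequences printed here the capitals mark these letters, each sequence reads 5′ to 3′ along the gene's strand, and all 4 lie outside the exons of the GENCODE M21 annotation. They come from chr17:34287862-34287917 (minus strand, H2-Aa), chr17:34305761-34305817 (plus strand, H2-Eb1), chr17:34000354-34000408 (minus strand, H2-K1) and chr2:122147589-122147643 (plus strand, B2m).
H2-Aa: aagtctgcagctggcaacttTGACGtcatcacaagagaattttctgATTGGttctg
H2-Eb1: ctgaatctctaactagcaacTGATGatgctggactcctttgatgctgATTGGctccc
H2-K1: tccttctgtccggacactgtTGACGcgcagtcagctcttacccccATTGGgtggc
B2m: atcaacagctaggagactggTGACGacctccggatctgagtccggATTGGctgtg

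The module was found in 6 of the 7 members with a window, namely H2-Aa, H2-Eb1, H2-DMb1, H2-K1, H2-D1 and B2m, and in neither of the 2 windows of H2-DMa. It began 74 bases before the start of H2-Aa, 86 before H2-Eb1, 41 before H2-K1 and 78 before B2m. Of all 32851 windows, 395 (1.2%) held it, while ATTGG alone was in 37.4%. The spacing of 20 to 23 bases was chosen after these sequences had been looked at, so the count in the members is a description. The letters GGGGATTCCCC were taken from the H2-K1 window itself, 10 bases before TTTCACTT, so finding them in H2-K1 was fixed in advance. They are the letters of a classical NF-kappaB site, and TTTCACTT is part of an interferon response element. H2-D1 held both as well. The stretch that holds both is shown for H2-K1, with the same letters in capitals.
H2-K1: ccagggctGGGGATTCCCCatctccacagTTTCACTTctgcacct
This stretch lies on the minus strand at chr17:34000422-34000466, and over its 45 bases the copy upstream of H2-D1 differed at 1 base. GGGGATTCCCC was present in 10 of all windows (0.0304%) and TTTCACTT in 1.6%, on either strand. Those 10 include 2 windows of H2-K1 and 1 of H2-D1.

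The levels of the 10 genes were compared with each other as TPM, transcript abundances that divide reads by the gene's exon length and add up to the same total in each library. Between libraries a TPM therefore also depends on all other genes in the total, such as the mitochondrial genes (14.78% and 24.25% of reads in the kidney libraries). CLP + MLT is set against CLP further below by counts scaled in another way, and not by these TPM. B2m, the light chain shared by all classical class I molecules, had the highest level of the 10 in each library, at 646 and 440 TPM in kidney (CLP and CLP + MLT, in this order) and 697 and 833 TPM in heart. The class I heavy chains followed, H2-D1 at 271, 147, 225 and 286 TPM and H2-K1 at 173, 112, 192 and 257 TPM in kidney CLP, kidney CLP + MLT, heart CLP and heart CLP + MLT. The intervals of these 3 genes did not overlap in any library, but with the longest transcript as the length H2-K1 stood above H2-D1 in heart (269 against 246 TPM in CLP, 364 against 317 TPM in CLP + MLT).

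Cd74, the invariant chain that escorts class II molecules to the endosome, was the highest class II gene in each library, at 70.0, 52.2, 12.3 and 12.4 TPM. In kidney, H2-Eb1 (28.7 and 22.4 TPM) and H2-Ab1 (28.6 and 19.0 TPM) came next with overlapping intervals, ahead of H2-Aa (16.6 and 12.3 TPM). With the longest transcript as the length, H2-Ab1 was at 51.9 and 35.5 TPM, above H2-Eb1. H2-Eb1 encodes the beta chain of I-E, and H2-Ab1 and H2-Aa the beta and alpha chains of I-A, the surface molecules themselves. H2-DMb1 and H2-DMa, the chains of the DM molecule that exchanges peptides in the endosome, stood at 14.7 and 3.93 TPM in the CLP kidney and at 5.75 and 2.65 TPM in the CLP + MLT kidney.

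In heart, the class II genes other than Cd74 lay between 0.427 and 4.47 TPM, and their order was poorly resolved. H2-Ab1 ranked first among them in CLP (2.96 TPM), above H2-Aa (1.07 TPM), while H2-Eb1 (4.47 TPM) ranked first in CLP + MLT, above H2-Aa (2.29 TPM) and H2-Ab1 (2.27 TPM). From H2-Aa downwards in the CLP heart, every neighbour in the order overlapped the next. Ciita was the lowest of the 10 in each library, at 0.659, 0.270, 0.427 and 0.736 TPM, and only in heart did its interval overlap that of the gene above it.

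**Figure D1:**
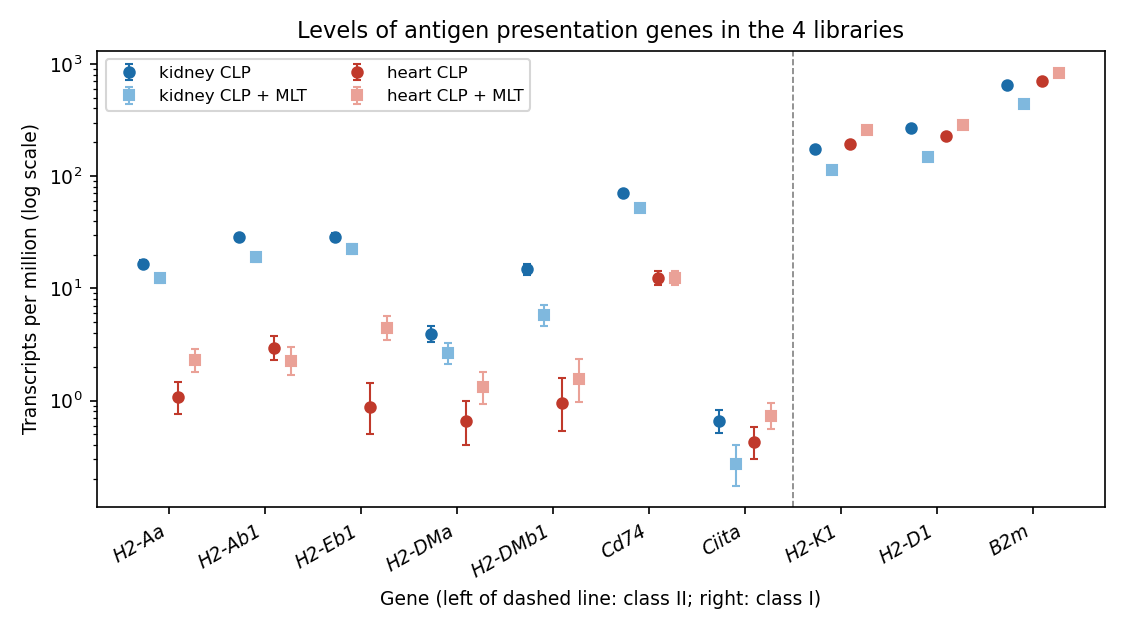
Level of each gene (x axis) in TPM (y axis, log scale) in the kidney CLP, kidney CLP + MLT, heart CLP and heart CLP + MLT libraries, with 95% Poisson intervals of the read count. Differences between libraries in TPM also depend on all other genes in the total. Class I genes lie between 112 and 833 TPM in the 4 libraries, whereas class II genes other than Cd74 lie between 0.270 and 28.7 TPM.

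The tissues differed in class II much more than in class I. The 7 class II genes summed to 163 TPM in the CLP kidney and 19.3 TPM in the CLP heart, 8.47-fold higher in kidney (95% interval 7.63 to 9.42). In the CLP + MLT libraries the sums were 115 and 25.03 TPM, 4.58-fold higher in kidney (4.15 to 5.06). With counts scaled by TMM over all 4 libraries in place of TPM, these folds were 5.42 and 3.90. H2-Eb1 had the largest fold of the 7 in CLP, 32.6 (19.9 to 57.3), and was at 5.02 (3.90 to 6.53) in CLP + MLT, where H2-Ab1 had the largest, 8.36 (6.22 to 11.5).

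Ciita had the smallest kidney to heart fold of the 7 genes in CLP and in CLP + MLT. Its kidney level was 1.54-fold that of heart in CLP (1.02 to 2.35), with 70 reads in kidney and 38 in heart, and it was 2.72-fold higher in heart in CLP + MLT (1.67 to 4.58), with 24 and 59 reads. With TMM over all 4 libraries, the kidney to heart fold in CLP was 0.991, so its direction there depended on the scaling. The 3 class I genes summed to 1090 TPM in the CLP kidney and 1114 TPM in the CLP heart, a kidney to heart fold of 0.978 (0.958 to 0.999). They summed to 699 and 1377 TPM in CLP + MLT, a fold of 0.508 (0.495 to 0.520). TMM over all 4 libraries gave 0.649 and 0.450, so the CLP value moved by more than 1.5 times with the scaling.

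For each gene, CLP + MLT was then compared with CLP as the log2 ratio of counts scaled by TMM within the tissue, a scaling set by the bulk of the genes and not by a few abundant ones. A gene was called past the thresholds at a fold of at least 1.5 with an exact binomial p of at most 0.01 on its reads, a test that compares 2 libraries and not 2 conditions. In kidney, 1320 genes (7.8%) were higher and 1284 (7.58%) lower out of 16932 kept, 15.4% in either direction. With scaling by library size alone the split was 727 higher and 2373 lower. In heart, 1134 (7.15%) were higher and 1394 (8.78%) lower out of 15871, or 15.9% in all, and with scaling by library size alone the balance turned, to 1318 higher and 1215 lower.

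In kidney, H2-DMb1 fell 1.92-fold, and the other class II genes except Ciita had log2 ratios between −0.18 and 0.06. H2-DMb1 was the only one of the 7 past the thresholds, beside 7.58% of all kept genes in the lower direction. Their median log2 ratio was −0.16, that of all kept genes 0.00. Cd74 had 1310 reads in CLP and 816 in CLP + MLT, a log2 ratio of −0.01 (−0.14 to 0.12) once the smaller CLP + MLT library was allowed for.

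For the chains of the surface molecules the ratios were also small. H2-Aa went from 701 to 435 reads, a log2 ratio of −0.02 (−0.19 to 0.16). H2-Eb1 went from 622 to 406 reads, a log2 ratio of 0.06 (−0.13 to 0.24). For H2-Ab1, with 820 and 454 reads, the ratio was −0.18 (−0.35 to −0.01). Under scaling by library size alone, which put the median of all kept genes at −0.19, these ratios and that of Cd74 were −0.21 for H2-Aa, −0.14 for H2-Eb1, −0.38 for H2-Ab1 and −0.21 for Cd74.

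The DM chains parted from each other. H2-DMb1 went from 276 to 90 reads, a log2 ratio of −0.94 (−1.30 to −0.60), and H2-DMa from 151 to 85 reads, a ratio of −0.16 (−0.56 to 0.24). Within a library H2-DMa had 0.547 reads for each read of H2-DMb1 in CLP and 0.944 in CLP + MLT, an odds ratio of 1.72 (1.19 to 2.504). Of the 50-base stretches in H2-DMb1 transcripts, 22.7% also occur in its neighbour H2-DMb2, which had 22 and 7 reads in kidney, so their reads could be split or lost in the counting. H2-DMa overlaps Brd2 on the opposite strand over 360 exon bases, and without a stated strand setting reads there cannot be assigned. H2-DMb1 was no longer past the thresholds at a fold of at least 2, which 7% of all kept genes passed, or at an assumed coefficient of variation between mice of 0.2 (3.66%) or 0.4 (0.532%).

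Ciita, with 70 and 24 reads in kidney, had a log2 ratio of −0.86 (−1.61 to −0.19), of nearly the size of that of H2-DMb1, but did not pass the thresholds. It passed with scaling by library size alone (−1.05) and after a trend of the ratios on gene length was removed (−0.88). Ciita overlaps Dexi on the opposite strand over 329 exon bases.

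In heart, H2-Eb1 and H2-Aa rose, by 4.48-fold and 1.92-fold. These were 2 of the 7 class II genes, beside 7.15% of all kept genes in the higher direction. H2-Eb1 had 16 reads in CLP and 73 in CLP + MLT, a log2 ratio of 2.17 (1.41 to 3.08), at percentile 99.3 among all kept genes. H2-Aa had 38 and 73 reads, a log2 ratio of 0.94 (0.37 to 1.56). H2-Ab1, whose product pairs with that of H2-Aa, did not share this direction, with 71 reads in CLP and 49 in CLP + MLT and a ratio of −0.52 (−1.08 to 0.02).

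The same reads can be put as the ratio of the chains within a library, which needs no scaling but is not separate support. For each read of H2-Ab1 there were 0.535 reads of H2-Aa in CLP and 1.49 in CLP + MLT, an odds ratio of 2.77 (1.58 to 4.93). For H2-Eb1 the same ratio went from 0.225 to 1.49, an odds ratio of 6.55 (3.31 to 13.6). In kidney, the corresponding odds ratios were 1.12 (0.946 to 1.33) for H2-Aa and 1.18 (0.991 to 1.40) for H2-Eb1. Neither kidney interval excluded an odds ratio of 1, and both heart intervals did.

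Cd74 had 193 reads in the CLP heart and 175 in the CLP + MLT heart, a log2 ratio of −0.13 (−0.43 to 0.17). Set against the summed reads of H2-Aa, H2-Ab1 and H2-Eb1, it went from 1.54 to 0.897, an odds ratio of 0.582 (0.424 to 0.797). In kidney this quantity was 0.611 and 0.630. Neither DM chain passed, H2-DMa having 21 and 38 reads with a ratio of 0.85 (0.06 to 1.71) and H2-DMb1 15 and 22 reads with a ratio of 0.55 (−0.45 to 1.61). Ciita had 38 and 59 reads and a ratio of 0.64 (0.03 to 1.27), also short of the thresholds. The median over the 7 genes was 0.64, that of all kept genes 0.00, and the 2 genes with negative values were H2-Ab1 and Cd74.

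The heart counts of class II were small, and the calls depended on the count minimum and the thresholds. When an average of 50 counts was required, 3 of the 7 genes were left, with a median of −0.13, and H2-Aa alone was past the thresholds. At a fold of at least 2 (7.93% of all kept genes) and at an assumed coefficient of variation of 0.2 (4.17%), H2-Eb1 alone passed. At a coefficient of 0.4 (0.397%), 0 of the 7 did.

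**Figure D2:**
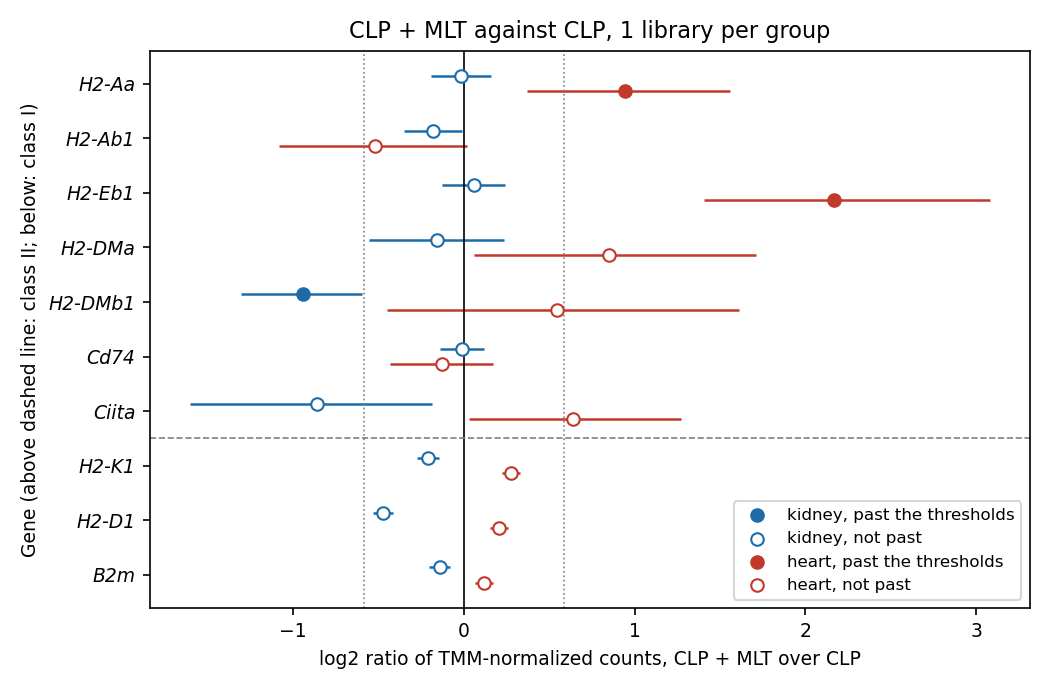
Log2 ratio of TMM-scaled counts, CLP + MLT over CLP (x axis), for each gene (y axis, class II above the dashed line and class I below) in kidney and heart, with 95% counting intervals, filled points being past the thresholds and dotted lines marking a 1.5-fold change. H2-DMb1 in kidney (−0.94) and H2-Aa (0.94) and H2-Eb1 (2.17) in heart are filled, and the 3 class I genes lie left of 0 in kidney and right of 0 in heart.

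Of the class I genes, 0 of 3 passed the thresholds in kidney and 0 of 3 in heart, beside 15.4% and 15.9% of all kept genes. Counting intervals excluded 0 for each class I gene in each tissue, but the share of all kept genes that do so was not computed. With 3076 to 7785 reads per library such intervals are narrow. Among all kept genes the ratios stood at percentiles 15.3 to 36.3 in kidney and 62.2 to 75.5 in heart. In kidney the ratios were below 0. H2-D1 had 7785 reads in CLP and 3520 in CLP + MLT, a log2 ratio of −0.47 (−0.53 to −0.42). H2-K1 had 5674 and 3076 reads and a ratio of −0.21 (−0.28 to −0.15), and B2m 6195 and 3522 reads and a ratio of −0.14 (−0.20 to −0.08). With scaling by library size alone H2-D1 was at −0.67 and passed.

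In heart the class I ratios were above 0. H2-K1 had 5276 reads in CLP and 6348 in CLP + MLT, a log2 ratio of 0.28 (0.22 to 0.33). H2-D1 had 5422 and 6207 reads and a ratio of 0.20 (0.15 to 0.26), and B2m 5594 and 6023 reads and a ratio of 0.12 (0.06 to 0.17). Each of the 6 class I ratios kept its sign under each alternative of scaling, filter, prior count and gene length.

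The ratio of the heavy chains to each other differed between the kidney libraries. There were 1.37 reads of H2-D1 for each read of H2-K1 in the CLP kidney and 1.14 in the CLP + MLT kidney, an odds ratio of 0.834 (0.786 to 0.885), and 1.03 and 0.978 in heart, an odds ratio of 0.951 (0.903 to 1.00). Reads of these genes are not wholly separable, since 12.8% of the 50-base stretches of H2-D1 and 9.63% of those of H2-K1 occur in other genes. Summed with the other class I genes of the H2 region, 16 genes in all, they had 20181 and 10917 reads in kidney, a log2 ratio of −0.21 (−0.25 to −0.18), and 16705 and 19363 reads in heart, a ratio of 0.22 (0.19 to 0.25).

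The strain bears on H2-Eb1. C57BL/6 mice carry the b haplotype of H2, in which the alpha chain gene of I-E is defective, so that the product of H2-Eb1 lacks its usual partner at the cell surface. H2-Ea-ps, the entry for that alpha chain, had 0 reads in all 4 libraries, as did H2-Eb2. H2-Ob, the beta chain of the DM inhibitor H2-O, rose in kidney from 6 to 21 reads, a log2 ratio of 2.37 (1.12 to 4.08), and had 21 and 25 reads in heart. It was named after its values were seen, being the only other class II gene past the thresholds. In kidney it was 1 of 2 other class II genes kept, beside 7.8% of all kept genes in the higher direction. H2-Ob met the count filter in kidney only through CLP + MLT, where it was high, so its call is not separate from the filter. The other kept gene, H2-DMb2, went the other way, from 22 to 7 reads, a ratio of −0.94 (−2.45 to 0.30), and did not pass. H2-DMb2 had 0 reads in both heart libraries.

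The rest of the pathway was described by lists of genes. In the endosome, proteases, held in check by inhibitors, cut antigens and the invariant chain. In kidney 4 of 7 genes of this list fell, beside 7.58% of all kept genes, and the list median was −0.84. Ctsl, an endosomal cathepsin, went from 21265 to 5063 reads, a log2 ratio of −1.40 (−1.44 to −1.35). The asparaginyl protease Lgmn was at −1.17 (−1.22 to −1.12) and Ctsb at −0.91 (−0.95 to −0.87). The fourth was Ctss, the cathepsin that trims the invariant chain in antigen-presenting cells, with 524 and 184 reads and a ratio of −0.84 (−1.09 to −0.59).

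In heart, 2 of 7 genes of the endosomal list fell, beside 8.78% of all kept genes. The cathepsin Ctsd went from 4537 to 2096 reads, a log2 ratio of −1.10 (−1.18 to −1.03), and Cst3, an inhibitor of cathepsins, from 5612 to 3122, a ratio of −0.84 (−0.90 to −0.77). Ctss had 150 and 134 reads and a ratio of −0.15 (−0.50 to 0.19). The list median was −0.39.

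The factors that bind the upstream module and the ligases that turn class II molecules over gave no call, with 0 of 9 past the thresholds in each tissue and medians of 0.05 in kidney and −0.05 in heart. Of all kept genes, 15.4% passed in kidney and 15.9% in heart. Peptide loading of class I, which includes the transporter subunits Tap1 and Tap2 and the class I coactivator Nlrc5, also had 0 of 9 past the thresholds in each tissue. Its 9 ratios were all below 0 in kidney, from −0.52 to −0.10, with a median of −0.23 close to that of the class I members, −0.21. In heart they ran from −0.19 to 0.08 with a median of −0.03, while that of the class I members was 0.20.

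Among the immunoproteasome genes, which generate class I peptides under interferon, 0 of 5 passed in kidney. In heart 1 of 5 fell, beside 8.78% of all kept genes. It was the activator subunit Psme2 (724 and 475 reads, log2 ratio −0.60, −0.77 to −0.43). Of the 3 constitutive counterparts 2 fell in heart, Psmb5 at −1.21 (−1.42 to −1.01) and Psmb6 at −1.15 (−1.28 to −1.02), and 0 passed in kidney. In heart 0 of 10 other class I genes of the H2 region passed, and in kidney, beside 7.58% of all kept genes, 2 of 10 were lower. These were H2-T24, with 85 and 30 reads and a ratio of −0.82 (−1.48 to −0.21), and H2-Q10, with 21 and 2 reads, named after its values were seen. H2-Q10 reached the filter's mean of 10 reads only through CLP, where it was high, so its call is not separate from the filter.

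Of the class I-like genes outside the H2 region, 2 of 5 passed in each tissue, beside 15.4% of all kept genes in kidney and 15.9% in heart. Cd1d1, which presents lipids to natural killer T cells, fell in kidney from 51 to 6 reads, a log2 ratio of −2.34 (−3.93 to −1.20), and rose in heart from 26 to 56 reads, a ratio of 1.10 (0.42 to 1.85). Hfe, a regulator of iron uptake that binds B2m, fell in kidney from 1068 to 293 reads, a ratio of −1.19 (−1.39 to −1.01), and in heart from 1086 to 616 reads, a ratio of −0.81 (−0.95 to −0.66).

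Interferon gamma itself was scarcely detected, Ifng having 1 read in the CLP kidney and 0 in the other 3 libraries. Of its pathway, 2 of 7 genes fell in kidney, beside 7.58% of all kept genes. They were the receptor chain Ifngr2 (459 and 184 reads, log2 ratio −0.65, −0.90 to −0.40) and the transcription factor Irf8 (377 and 152 reads, −0.64, −0.92 to −0.36). All 7 ratios were below 0, with a median of −0.40. In heart 0 of 8 passed, with a median of 0.13. Among the costimulatory genes, 2 of 4 rose in kidney, beside 7.8% of all kept genes. They were Cd86 (24 and 41 reads, log2 ratio 1.42, 0.68 to 2.24) and Cd40 (32 and 42 reads, 1.05, 0.37 to 1.78). In heart 1 of 4 rose, beside 7.15% of all kept genes. It was the inhibitory ligand Cd274 (96 and 155 reads, 0.70, 0.32 to 1.08).

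**Figure D3:**
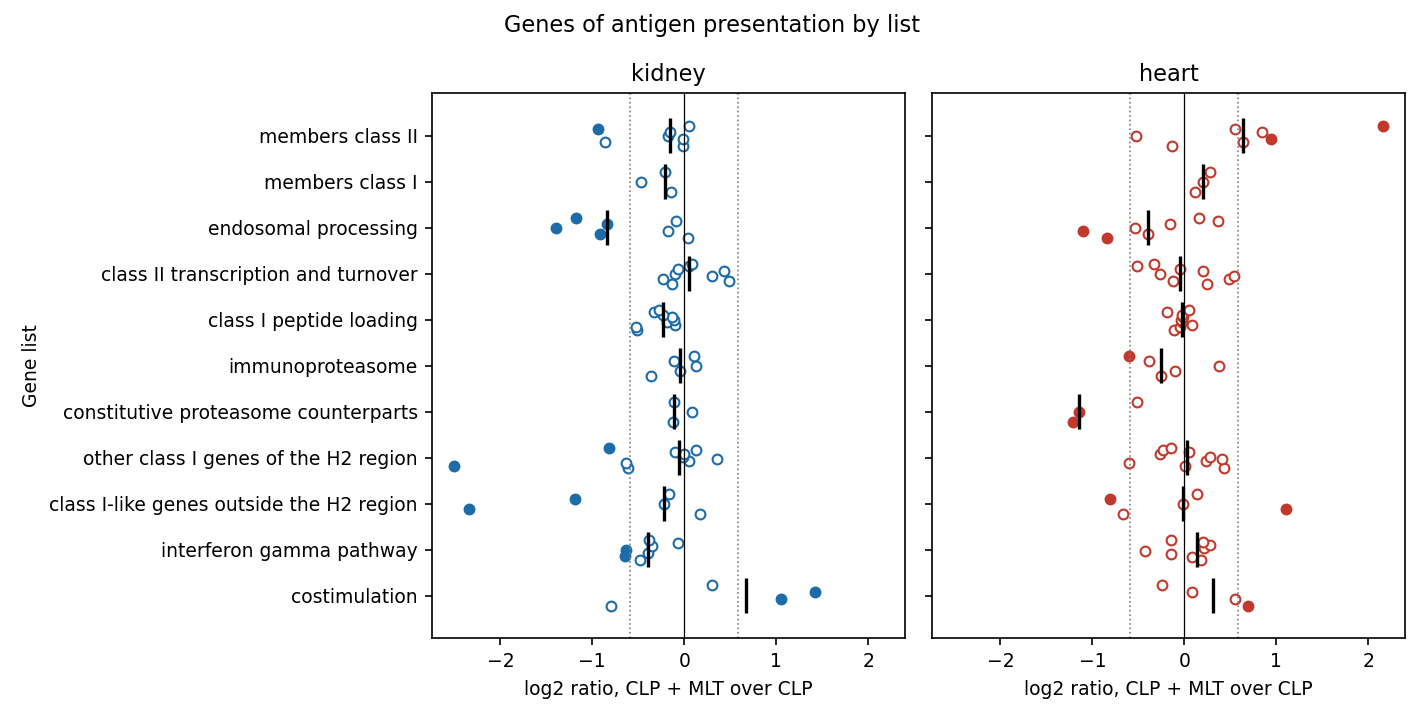
Log2 ratio of TMM-scaled counts, CLP + MLT over CLP (x axis), for the kept genes of each list (y axis), with kidney on the left and heart on the right, filled circles being past the thresholds, black bars the list medians and dotted lines a 1.5-fold change. The endosomal processing list has 4 filled circles in kidney (median −0.84) and 2 in heart (median −0.39), while class I peptide loading has none in either tissue.

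Summed markers of leukocytes, macrophages, dendritic cells and B cells, which carry class II, had log2 ratios above 0 in kidney, and in heart all but the macrophage set did, with 1 gene setting the sign of a sum in each tissue. The leukocyte gene Ptprc had 147 and 179 reads in kidney, a log2 ratio of 0.95 (0.63 to 1.28), and 239 and 265 reads in heart, a ratio of 0.16 (−0.10 to 0.42). The 12 macrophage and monocyte markers summed to 3729 and 2911 reads in kidney, a ratio of 0.31 (0.24 to 0.39), and to 3682 and 3109 in heart, a ratio of −0.23 (−0.30 to −0.16). Of all kept genes, 7.8% were higher and 7.58% lower past the thresholds in kidney, and 7.15% and 8.78% in heart. Of the macrophage and monocyte markers kept, 1 of 11 was higher and 1 lower in kidney, and 2 of 12 were higher and 3 lower in heart. The most abundant, Csf1r, was at 1.13 in kidney and 0.15 in heart. Without Csf1r, a choice made after its values were seen, the kidney sum was 2589 and 1342 reads, and its ratio turned to −0.28 (−0.37 to −0.18). The marker that fell in kidney, also named after its values were seen, was the lipopolysaccharide co-receptor Cd14, with 787 and 69 reads and a ratio of −2.83 (−3.22 to −2.48). Class II as a whole was at −0.10 (−0.18 to −0.03) in kidney and 0.33 (0.13 to 0.52) in heart, and the part of macrophage markers in these values was not tested.

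The 10 dendritic cell markers summed to 421 and 308 reads in kidney, a log2 ratio of 0.22 (0.00 to 0.44), and to 1526 and 1862 in heart, a ratio of 0.30 (0.20 to 0.40). Zbtb46, which endothelial cells also make, gave 1119 and 1490 of the heart reads. Without Zbtb46, again chosen after its values were seen, the heart sum was 372 reads in CLP + MLT against 407 in CLP, and its ratio was −0.12 (−0.33 to 0.09). Siglech was at 0 in all 4 libraries. Past the thresholds were 1 of 6 kept markers in kidney and 1 of 5 in heart, each higher, beside 7.8% and 7.15% of all kept genes. The 9 B cell markers summed to 86 and 149 reads in kidney, a ratio of 1.46 (1.07 to 1.87), and to 46 and 163 in heart, a ratio of 1.82 (1.36 to 2.34). Beside the same shares of all kept genes, 2 of 3 kept B cell markers in kidney and 2 of 2 in heart were higher past the thresholds. The most abundant was Ighm, with 20 and 87 reads in kidney and 25 and 115 in heart, whereas the defining marker Ms4a1 was at 0 in all 4 libraries. Leaving out Ighm, a choice made after its values were seen, lowered both ratios. The kidney sum was then 66 and 62 reads, a ratio of 0.58 (0.06 to 1.10). The heart sum was 21 and 48 reads, a ratio of 1.18 (0.43 to 2.02). The part of B cell markers in the heart values of H2-Eb1 and H2-Aa was not tested.

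The other marker sets were summed likewise. T cell markers summed to 100 and 53 reads in kidney and 43 and 29 in heart, natural killer cell markers to 6 and 4 and to 18 and 3, and neutrophil markers had log2 ratios of −0.35 (−0.57 to −0.13) in kidney and −0.44 (−0.59 to −0.29) in heart. Without S100a9, also a choice made after its values were seen, the kidney ratio of the neutrophil set was 0.02 (−0.29 to 0.32). The sum of the 6 endothelial markers had the signs of class I, −0.36 (−0.43 to −0.30) in kidney and 0.25 (0.21 to 0.28) in heart. The 3 class I genes summed were at −0.29 (−0.32 to −0.25) and 0.20 (0.17 to 0.23). All 6 markers were negative in kidney, while in heart 5 were positive and 1, Pecam1, was at −0.08 (−0.16 to −0.01). Without Kdr, a choice made after its values were seen, the heart sum was at 0.13 (0.10 to 0.17). The part of endothelial markers in the class I values was not tested. Red blood cell genes were at 0.30 in kidney and −0.20 in heart.

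Kidney genes were also read in the heart libraries. The 6 tubule and podocyte markers had 1329 reads in the CLP heart and 2807 in the CLP + MLT heart, a log2 ratio of 1.09 (0.99 to 1.18). Cardiomyocyte markers were at −0.45. Of the kidney markers, 4 of 5 kept were higher past the thresholds, beside 7.15% of all kept genes. By TPM each of the 6 reached 0.182% to 2.20% of its kidney level in CLP and 0.278% to 5.19% in CLP + MLT. The class II genes were at 3.07% (H2-Eb1) to 64.8% (Ciita) in CLP and from 11.96% (H2-Ab1) upwards in CLP + MLT. The 16 reads of H2-Eb1 in the CLP heart gave an interval of 1.74% to 5.03%, which overlaps the range of the kidney markers. In CLP + MLT H2-Eb1 was at 19.9% (15.3% to 25.6%) and H2-Aa at 18.6%. The part of kidney RNA in the heart values of class II was not tested.

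**Figure D4:**
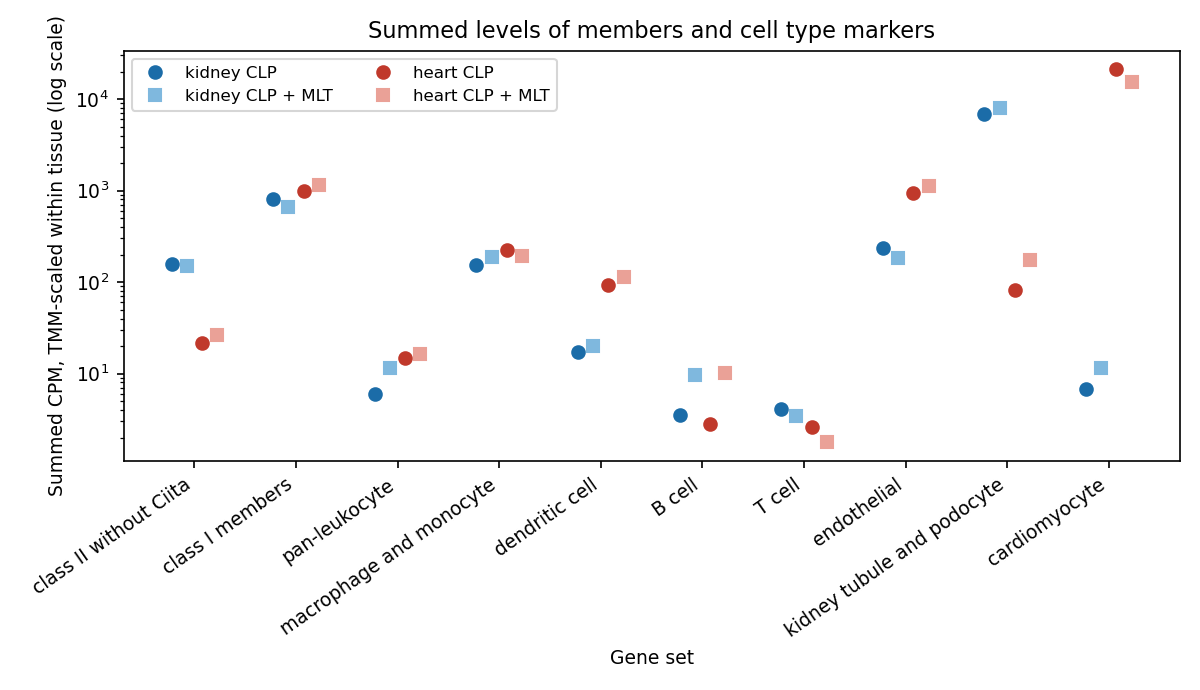
Summed CPM (y axis, log scale), which are counts divided by the library's size and scaled by TMM within each tissue, of the members and of cell type marker sets (x axis) in the 4 libraries, to be compared within a set. B cell markers lie higher in CLP + MLT than in CLP in both tissues (log2 ratios 1.46 in kidney and 1.82 in heart). Without Ighm these ratios were 0.58 and 1.18. The class I members and endothelial markers are lower in CLP + MLT in kidney and higher in heart.

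The genes with the pattern most like that of each class were sought over the 4 libraries, by the root mean square difference of centred log2 CPM from the mean profile of the class, among 11131 genes with at least 50 counts on average in each tissue. For class II without Ciita these were Cmtm6 (difference 0.073), Gstt3 (0.079), Prps2 (0.084), Znrf2 (0.088) and Tns3 (0.095). Cmtm6 had 1769 and 987 reads in kidney and 146 and 202 in heart. For class I they were Limd1 (0.019), Jak1 (0.027), Sik3 (0.030), Usp15 (0.038) and Gzf1 (0.039), all nearer to their class than any of the former 5. Jak1, the kinase of the interferon receptors, had 2094 and 1033 reads in kidney and 1683 and 1933 in heart. With 4 libraries such a ranking describes these libraries only.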

How the data were processed

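Polyadenylated RNA was made into libraries with the NEBNext Ultra kit, per the labels. The authors trimmed reads, aligned them to mm10 with HISAT2 2.1.0 and deposited raw counts per gene for each library, and their notes name HTSeq. HTSeq's version, strand setting and annotation are not stated. The 5 summary lines closing each file were left out of library sizes, and reads on no gene made up 29.58% to 37.66% of a file. Gene names and exon lengths came from GENCODE M21, which held 55141 of 55401 identifiers. Of these, 792 carried another version suffix, so the authors' annotation was another release.

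From the deposited counts, TMM factors were computed within each tissue with edgeR 4.0.16 in R 4.3.3. The filter was an average of at least 10 reads in a tissue, which 16932 genes passed for kidney and 15871 for heart, and ratios used a prior count of 0.5. Intervals were exact at 95% (Clopper-Pearson for ratios, Poisson for TPM, conditional for odds ratios), from scipy 1.17.1. A fold of 1.5 and p of 0.01 are the thresholds named in the study's methods, which used them with edgeR. The p here is the exact binomial p on reads, which holds no spread between mice, so the calls are not those of the study. The scripts were tested on simulated data. Named pathway genes were the up to 3 per list and tissue with the largest ratio past the thresholds and a mean of at least 20 reads. Markers were to be named if among the 2 with the most reads in a tissue or at 0, but not all of these are named. Cd14 and Kdr were named after their values were seen. DESeq2 1.42.0 size factors were 1 of 11 other settings tried. The members and lists were chosen with earlier results of these data known. Promoters were those of RefSeq, GRCm38.p6, the coordinate system of mm10. The upstream sequences of H2-DMb1 and H2-D1 lie within annotated exons and were not printed. The values of 1 marker gene are not reported here.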

Additional observations from a re-analysis of the deposited data

Results flagged for a closer look

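For 4 genes the counting intervals lay on opposite sides of 0 in the tissues, below it in kidney and above it in heart. The share of all kept genes that do the same was not computed, so this count is a description. Among all kept genes the class I ratios stood at percentiles 15.3 to 36.3 in kidney and 62.2 to 75.5 in heart. Those of Ciita stood at 6.59 and 90.2. The heart minus kidney difference of the log2 ratios was 1.50 for Ciita (−0.86 and 0.64), 0.68 for H2-D1 (−0.47 and 0.20), 0.49 for H2-K1 (−0.21 and 0.28) and 0.26 for B2m (−0.14 and 0.12). With 1 library per group the difference between the tissues was not tested against any spread between mice. Ciita rested on 24 to 70 reads per library and the class I genes on 3076 to 7785.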

How the results depend on the processing

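No paired analysis within a tissue was possible because each group had 1 library, and for the same reason no library could be left out. The titles of both CLP + MLT libraries carry the same number, which is not explained. Whether kidney and heart came from the same mouse is therefore not known. Calls of class II members changed as follows. In kidney 1 of 7 became 2 with scaling by library size alone or with a trend of the ratios on gene length removed, and 0 with a fold of at least 2 or an assumed coefficient of variation of 0.2 or 0.4. In heart 2 of 7 became 1 with a mean of at least 50 counts, a fold of at least 2 or a coefficient of 0.2, and 0 with 0.4. Class I in kidney went from 0 to 1 with library size alone. That scaling also put the kidney medians at −0.35 (class II) and −0.41 (class I), where all kept genes were at −0.19, and the heart class I median at 0.26, which was 0.30 with the length trend removed. Requiring 50 counts on average put the heart class II median at −0.13. For all genes, coefficients of 0.2 and 0.4 and a fold of at least 2 gave 619, 90 and 1185 calls in kidney (2604 in the report) and 662, 63 and 1259 in heart (2528 in the report).

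For the pathway lists, an alternative added after seeing the data, the 13 kidney calls became 8 with a mean of at least 50 counts, 8 with a fold of at least 2, and 6 and 0 with coefficients of 0.2 and 0.4. The 8 heart calls became 4, 3 and 0 with the last 3 of these. Also added later, the longest transcript as length gave kidney to heart folds of class I of 0.9402 (CLP) and 0.490 (CLP + MLT), and TMM over all 4 libraries gave 0.649 and 0.450, and 5.42 and 3.90 for class II. The cause of these changes was not tested, except that fewer genes are kept at 50 counts. The other 96 of these summary values and 202 values of single members stayed within the limits used, 13 member values did not, and no called value changed sign. Counts of 15 to 73 reads limit every heart class II value other than Cd74.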
